A study of Mus musculus with 10 samples.

Results

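The genes described are the ubiquitin-specific proteases, taken as all genes whose platform symbol is Usp followed by a number. The array carried 39 such genes out of 12394 named genes, through 68 probe sets that each name 1 gene, and each gene was read through the probe set with the highest mean over the 10 arrays. Of the 39 genes, 30 had a mean intensity of at least 50 and were tested, and the other 9 are described by their values at the end. Ubiquitin is a small protein that is joined to other proteins and marks many of them for destruction by the proteasome. Ubiquitin-specific proteases are cysteine proteases that cut ubiquitin off again, and they form the largest family of deubiquitinating enzymes. Members act on p53, histones, DNA repair proteins, endosomal receptors and signalling proteins, and the Usp17-like members were first described as cytokine-induced genes of blood cells.

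The cells were 32Dcl3 myeloblasts, an established mouse cell line that needs interleukin-3 (IL-3) to grow and survive. The doses compared were 1 ng/ml (high) and 10 pg/ml (low) IL-3, given to cells that had been deprived of the cytokine and in which 10 µg/ml actinomycin D blocked the making of new RNA, so that the fall of a transcript's signal follows its decay. RNA was measured on Affymetrix 430A 2.0 arrays in 5 groups of 2 arrays: 0 h, and 2 h and 4 h under the low and the high dose. Each of 2 independent experiments gave 1 array per group from 1 divided culture. The level difference between the experiments was removed in the fit, so the p-values rest on how far changes between groups differed between these 2 divided cultures. All 5 groups are the same cell line, and the 0 h samples are the shared starting point of both doses. The labels disagree on whether 0 h was taken just before or after actinomycin D. The study counts 2 h and 4 h from the return of the cytokine, which followed the addition of actinomycin D, and not from the block itself.

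Array medians lay between 48.8 and 70.6, with 11280 to 12155 probe sets at or above an intensity of 50. Of 9 myeloblast markers, 7 had a mean of at least 50, among them Mpo, Prtn3 and Ctsg, while Elane and Kit did not. Their summed intensity was 9565 to 15210 at 0 h and 6423 to 12460 at 4 h under high IL-3. Markers of mast cells (3 of 4), macrophages (3 of 4) and megakaryocytes (Pf4) also reached 50, and none of 3 lymphoid markers did. The part of these cell types in the Usp changes was not tested. In RNA of a whole culture, fewer cells of a type and less RNA per cell cannot be told apart. The median log2 change to 4 h over 6792 tested genes was -0.21 in low and -0.16 under high IL-3, and it became 0.21 and 0.25 when arrays were scaled to a common 75th percentile. Log2 changes of single genes to 4 h are therefore given relative to these medians unless stated otherwise. The SE and adjusted p beside them are of the change before the median was taken off. The difference of a gene from the median was not tested. All log2 values are of intensity + 16, a scale that understates the changes of dim probe sets. Intensities of different probe sets cannot be set against each other as transcript levels, and the sources used here give no build for the array's annotation, so no positions are printed.

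After 4 h, 15 of the 30 Usp genes were lower than at 0 h under low IL-3 (limma, adjusted p under 0.05), beside 43.6% of all tested genes, and 1 was higher, beside 13.7%. Under high IL-3, 14 were lower, beside 40.6% of genes, and 1 was higher, beside 9.11%. Transcription was blocked, and the study's methods treat any value above that of 0 h as measurement noise. Genes called higher or risen are given throughout with that limit. The 14 genes that fell under high IL-3 all fell under low IL-3 too, and both comparisons use the same 0 h arrays. The median log2 change of the 30 was -0.38 in low and -0.36 under high IL-3. With arrays scaled to a common 75th percentile, 10 Usp genes were higher and 9 lower in each dose, beside 45.1% and 28.4% of tested genes under low IL-3 and 46.6% and 25.8% under high IL-3. With quantile normalization, 9 were higher and 9 lower in each dose, beside 37.1% and 31.2% of tested genes under low IL-3 and 37.0% and 28.3% under high IL-3. The 9 falls were of genes already called as deposited, namely Usp1, Usp3, Usp7, Usp10, Usp17la, Usp33, Usp34, Usp38 and Usp47. Usp38 and Usp17la reached the intensity minimum only through their 0 h arrays, so their falls are given as a description. Without this pair, 13 of 28 genes were lower under low and 12 under high IL-3. In 13 of the 30 genes all 4 arrays of 4 h lay below both 0 h arrays, which 36.9% of tested genes did. In no Usp gene did all 4 lie above both 0 h arrays, which 9.63% of tested genes did.

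**Figure D1:**
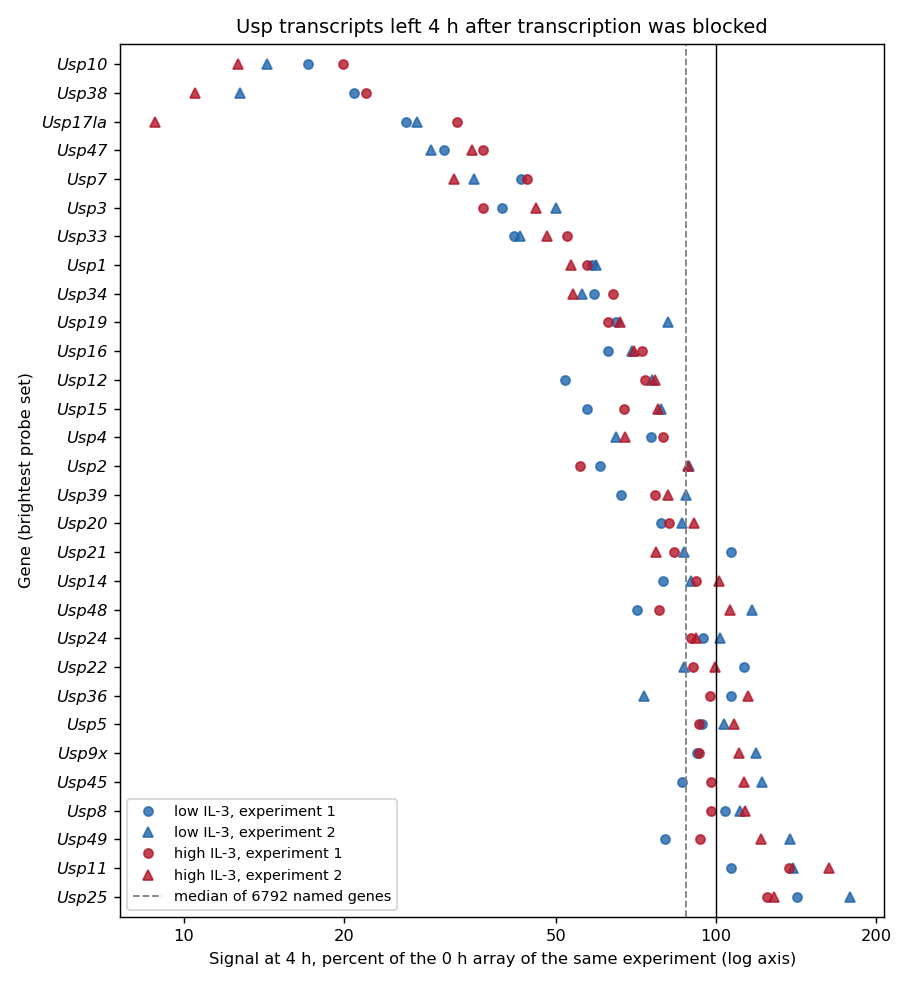
Signal left at 4 h for the 30 tested Usp genes, as percent of 0 h within each experiment on a log axis. Points are single arrays in low (blue) and high IL-3 (red) of experiment 1 (circles) and experiment 2 (triangles). Usp10 and Usp38 kept 16% and 16.5% on average, and Usp25 was at 143% of its 0 h signal.

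Averaged over the 4 arrays of 4 h, the signal left ranged from 16% of the 0 h signal for Usp10 to 143% for Usp25, with a median of 75.7% beside 87.9% over all tested genes. In 7 of the 30, or 23.3%, less than 50% remained, a share of 21.4% over all tested genes. The 7 were Usp10, Usp38, Usp17la, Usp47, Usp7, Usp3 and Usp33. Usp38 and Usp17la were tested only through their 0 h arrays, so their place in this count is a description. The same 7 had a mean half-life over the 4 decay curves under 4 h. The half-lives are fitted to the same arrays, so this is no separate evidence. Usp5, Usp9x, Usp45, Usp8 and Usp49 were at means between 99.7% and 108%, with SDs over the 4 arrays from 7.16 for Usp8 to 26.0 for Usp49. In all of these but Usp8 the signal was lower at 4 h in experiment 1 and higher in experiment 2. Other tested Usp9x probe sets had log2 changes from -0.05 to -0.29 in low and from -0.20 to -0.36 under high IL-3. None of these was called, and they are not relative to the median gene. Across the 30 genes, the log2 change to 4 h in experiment 1 and in experiment 2 had a Pearson correlation of 0.95 and the same sign in 76.7%, beside 0.95 and 83.0% over all tested genes. The genes share the arrays of each experiment and are not independent replicates.

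Among the 8 tested genes that act in the cell cycle, DNA repair and on p53, Usp10, Usp47, Usp7 and Usp1 fell in both doses, and Usp11 was higher at 4 h under high IL-3. Usp10 removes ubiquitin from p53 in the cytoplasm and binds the stress granule protein G3bp1. Its 0 h intensity was 1202 in experiment 1 and 1079 in experiment 2, the order used throughout. It was 569 and 392 at 2 h under low IL-3 and 500.9 and 348 at 2 h under high IL-3. At 4 h it was 205 and 155 in low and 239 and 137 under high IL-3. Each later array was below both arrays of the time before, in either dose. At 4 h 15.7% ± 1.95 was left in low and 16.3% ± 5.12 under high IL-3 (SD, n = 2 experiments), and the mean half-life over 4 curves was 1.51 h, from 1.32 to 1.69 h. Relative to the median gene, the log2 change to 4 h was -2.36 in low (SE 0.15, adjusted p = 1.9e-09) and -2.39 under high IL-3 (SE 0.15, adjusted p = 2.2e-09). Usp10 lay at the 3.64th percentile of tested genes by the share of signal left.

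Usp47, which acts on DNA polymerase beta in base excision repair, fell from 999 and 807 at 0 h to 622 and 454 at 2 h and 308 and 236 at 4 h under low IL-3. Under high IL-3 it was at 680 and 472 at 2 h and 364 and 281 at 4 h. Both experiments were slightly higher under the high than under the low dose at each time, and the 2 h and 4 h arrays of either dose did not overlap. It kept 30.0% ± 1.14 in low and 35.6% ± 1.16 under high IL-3 at 4 h. Its log2 change relative to the median gene was -1.47 (SE 0.13, adjusted p = 1.8e-08) and -1.28 (SE 0.13, adjusted p = 1.0e-07).

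Usp7 (HAUSP) removes ubiquitin from p53 and from its ligase Mdm2. Its intensity was 1661 and 1312 at 0 h, 1225 and 833 at 2 h in low and 1130 and 792 at 2 h under high IL-3. At 4 h it was 714 and 461 in low and 732 and 422 under high IL-3, below every earlier array. At 4 h 39.1% ± 5.56 was left in low and 38.1% ± 8.46 under high IL-3, with a mean half-life of 3.03 h. The log2 change relative to the median gene was -1.13 in low (SE 0.12, adjusted p = 1.2e-07) and -1.22 under high IL-3 (SE 0.12, adjusted p = 9.4e-08).

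Usp1 deubiquitinates the DNA repair proteins FANCD2 and PCNA. It kept 59.0% ± 0.745 in low and 55.3% ± 2.79 under high IL-3 at 4 h, from intensities of 3366 and 2498 at 0 h. The 4 h arrays read 1967 and 1486 in low and 1928 and 1333 under high IL-3, all below the 0 h arrays. Relative to the median gene its log2 change was -0.54 (SE 0.09, adjusted p = 1.6e-06) and -0.69 (SE 0.09, adjusted p = 5.1e-07). All 3 Usp1 probe sets fell in both doses.

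Usp11, which is linked to BRCA2 and homologous repair, read 74.8 and 40.6 at 0 h, 79.8 and 56.6 at 4 h in low and 103 and 66.1 at 4 h under high IL-3. The experiments lay further apart than the times, and the groups overlapped. Under high IL-3 its log2 change relative to the median gene was 0.63 (SE 0.18, adjusted p = 0.045), and leaving out single arrays ended the call in 8 of 10 cases, the highest adjusted p being 0.26 without the 0 h array of experiment 2. Under low IL-3 the change relative to the median gene was 0.43. Before the median was taken off, the changes were 0.46 under high and 0.22 under low IL-3 (SE 0.18, adjusted p = 0.32 for low IL-3). Usp45 and Usp24, both linked to DNA damage repair, were not called in either dose and kept 104% ± 25.2 and 98.1% ± 5.29 under low IL-3.

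Of the 6 tested genes that act on histones and in transcription, Usp3 and Usp16 fell in both doses and Usp12 fell under low IL-3. Usp3, a deubiquitinase of histones H2A and H2B, read 649 and 479 at 0 h, 422 and 287 at 2 h in low and 483 and 272 at 2 h under high IL-3. At 4 h it was at 257 and 239 in low and 237 and 220 under high IL-3. All 4 h arrays were below all earlier ones. It kept 44.7% ± 7.33 in low and 41.2% ± 6.64 under high IL-3, a log2 change relative to the median gene of -0.91 (SE 0.17, adjusted p = 3.7e-05) and -1.07 (SE 0.17, adjusted p = 1.6e-05). Both Usp3 probe sets fell.

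Usp16, an H2A deubiquitinase, kept 66.1% ± 5.01 in low and 71.3% ± 1.69 under high IL-3 (adjusted p = 0.0013 and 0.0066). Usp12, which works in a complex with the WD-repeat proteins Wdr48 and Wdr20, kept 63.9% ± 16.7 in low (adjusted p = 0.0036) and 75% ± 2.29 under high IL-3 (adjusted p = 0.058). Both falls of Usp16 and that of Usp12 were lost under 75th percentile scaling, with adjusted p of 0.20, 0.63 and 0.16, and under quantile normalization. The call of Usp12 was also lost without the 4 h array of experiment 1 under low IL-3 (adjusted p = 0.065) and with the mean of its probe sets (adjusted p = 0.078), and that of Usp16 under high IL-3 without the 4 h array of experiment 2 under high IL-3 (adjusted p = 0.064). Usp22, the deubiquitinase of the SAGA coactivator, was at 100% ± 18.2 and 95.1% ± 6.34 and was not called. Usp21 and Usp49, which also act on histones, were not called at 4 h either.

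Usp33 was the member of the endosome and membrane receptor group that fell, while Usp8 and Usp20 were not called. Usp33 and Usp20 are close relatives that remove ubiquitin from adrenergic receptors. Usp33 read 502 and 406 at 0 h, 342 and 213 at 2 h in low and 339 and 268 at 2 h under high IL-3. At 4 h it was at 210 and 174 in low and 263 and 195.3 under high IL-3, with some overlap between the 2 h and 4 h arrays. It kept 42.3% ± 0.752 in low (log2 change relative to the median gene -0.96, SE 0.15, adjusted p = 4.9e-06) and 50.2% ± 3.06 under high IL-3 (-0.78, SE 0.15, adjusted p = 5.5e-05). Usp20 kept 82.5% ± 5.36 and 86.3% ± 6.57 (adjusted p = 0.14 and 0.28). Usp8, which acts on receptors at endosomes, was at 108% ± 5.0 and 106% ± 11.2 (adjusted p = 0.59 and 0.73).

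In the ubiquitin recycling group neither tested gene was called. Usp5 (isopeptidase T) takes apart free ubiquitin chains. It read 1147 and 1176 at 0 h, 1081 and 1218 at 4 h in low and 1067 and 1270 at 4 h under high IL-3. The arrays of all times overlapped, and 98.9% ± 6.60 and 100.5% ± 10.6 of the signal was left. Not relative to the median gene, its log2 change was -0.017 in low (SE 0.10, adjusted p = 0.90) and 0.003 under high IL-3 (SE 0.10, adjusted p = 0.98). Relative to the median gene these were 0.20 and 0.17. Usp14, which trims ubiquitin at the proteasome, kept 84.6% ± 7.37 in low (adjusted p = 0.052) and 96.5% ± 6.71 under high IL-3 (adjusted p = 0.69) by its brightest probe set.

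**Figure D2:**
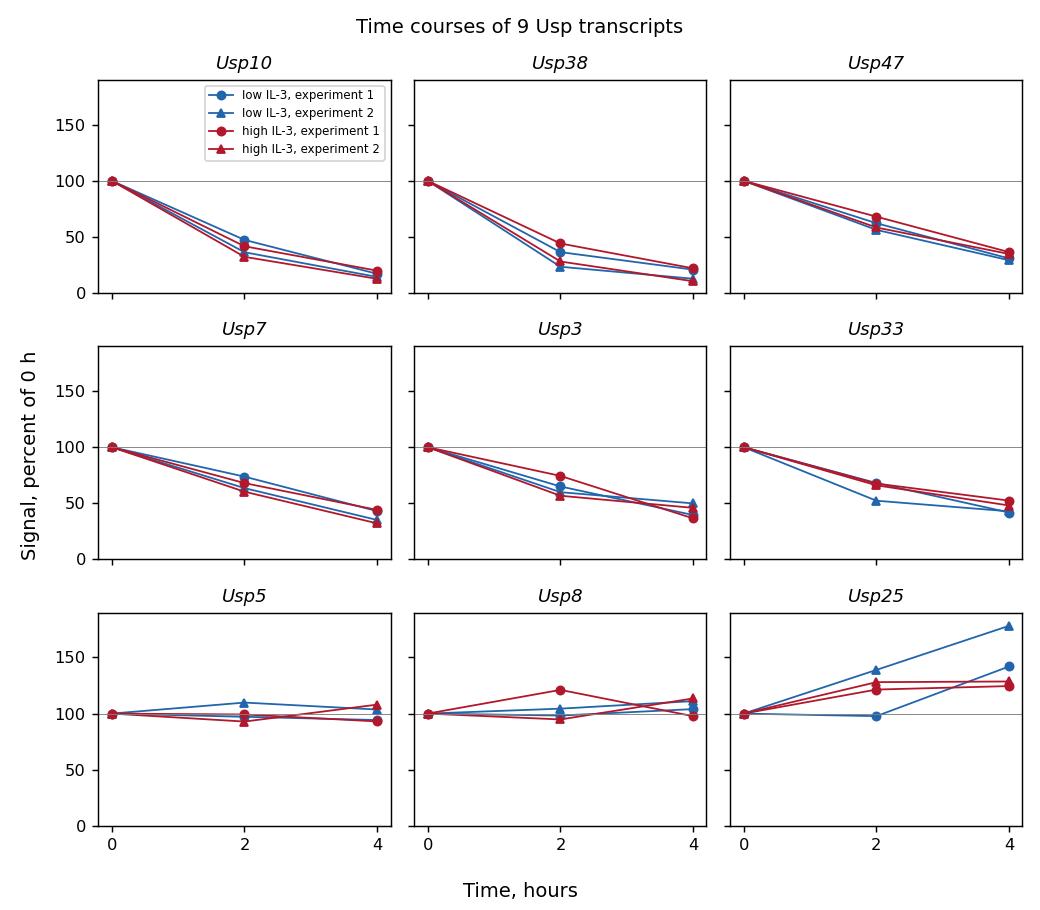
Time courses of 9 Usp genes, with time in hours on the x axis and signal as percent of 0 h within each experiment on the y axis. Each line is 1 experiment in low (blue) or high IL-3 (red). At 4 h every curve of Usp10 and Usp38 was at or below 22.0%, Usp5 and Usp8 lay between 93.0% and 113.5%, and Usp25 between 124.5% and 178%.

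Among the 6 tested signalling genes, Usp34, Usp15 and Usp4 fell in both doses, and Usp25 was called higher at 4 h under low IL-3. Usp34, a regulator of axin in Wnt signalling, kept 57.4% ± 2.16 in low and 59.0% ± 7.22 under high IL-3, and its log2 change relative to the median gene was -0.57 (SE 0.12, adjusted p = 6.3e-05) and -0.58 (SE 0.12, adjusted p = 1.1e-04). Both of its probe sets fell. Usp15 and its close relative Usp4 act on TGF-beta receptor signalling. Usp15 kept 68.1% ± 15.3 and 72.4% ± 7.54 (adjusted p = 9.2e-04 and 0.0049). Usp4 kept 70.2% ± 7.46 and 73.5% ± 8.71 (adjusted p = 0.0083 and 0.021). The calls of Usp15 and Usp4 were lost under 75th percentile scaling and under quantile normalization. Without the 0 h array of experiment 1, Usp15 was not called under high IL-3 (adjusted p = 0.073). Without the 0 h array of experiment 2, Usp4 was called in neither dose (adjusted p = 0.11 and 0.21). Its call in each dose was also lost without either 4 h array of that dose, with adjusted p of 0.0503 and 0.0501 under low IL-3 and 0.087 and 0.11 under high IL-3.

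Usp25, which acts on TRAF proteins in innate immune signalling, read 349 and 207 at 0 h and 341 and 287 at 2 h under low IL-3. At 4 h under low IL-3 it read 496 and 368, both above the higher of the 0 h arrays. Under high IL-3 it read 424 and 264 at 2 h and 435 and 266 at 4 h. At 4 h it stood at 160% ± 25.6 of the 0 h signal in low and 127% ± 2.91 under high IL-3. Not relative to the median gene, the log2 change was 0.64 in low (SE 0.15, adjusted p = 0.0021) and 0.32 under high IL-3 (SE 0.15, adjusted p = 0.094). Relative to the median gene these were 0.85 and 0.49. Its dose effect, high minus low over both times, was -0.11 (SE 0.11, adjusted p = 0.86), and the change of that effect from 2 h to 4 h was -0.41 (SE 0.21, adjusted p = 0.89), so neither showed a difference between the doses. Usp9x, a large protease of many substrates, and Usp48, linked to NF-kappaB, were not called and stood at 105% ± 19.0 and 93.8% ± 32.2 under low IL-3.

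Of the remaining tested genes, Usp38 had the second lowest share left. It read 178 and 203 at 0 h, 64.8 and 47.6 at 2 h in low and 78.5 and 57.1 at 2 h under high IL-3. At 4 h it read 37.0 and 25.9 in low and 39.1 and 21.3 under high IL-3. The 4 h arrays were all under 50, so the share left is imprecise. The mean was 190 over the 0 h arrays and 46.4 over the 8 later ones, so the gene was tested only because it was high at 0 h, and no p is given for its fall. It kept 16.8% ± 5.73 and 16.3% ± 8.14, with a mean half-life of 1.48 h, from 1.20 to 1.80 h. Relative to the median gene, the log2 change was -1.92 in low and -2.02 under high IL-3 (SE 0.20).

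Usp17la (Dub1), of the cytokine-induced Usp17-like group, read 164 and 41.7 at 0 h. It read 112 and 13.2 at 2 h in low, 111 and 7.95 at 2 h in high, 42.8 and 11.4 at 4 h in low and 53.3 and 3.68 at 4 h under high IL-3. Experiment 1 was above experiment 2 in every group, and the 4 h arrays of experiment 1 were not below the 0 h array of experiment 2. It kept 26.8% ± 0.908 and 20.7% ± 16.8, and its log2 change relative to the median gene was -1.13 and -1.30 (SE 0.26). Its mean was 103 over the 0 h arrays and 44.4 over the 8 later ones, so it too was tested only through 0 h, and no p is given. Usp17-like genes are near-identical copies, so the signal may come from more than 1 of them. A probe set naming a Usp gene beside another gene was left out in 3 cases.

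Usp19, anchored in the endoplasmic reticulum membrane, kept 72.9% ± 11.6 in low and 64.2% ± 2.36 under high IL-3 (adjusted p = 0.0087 and 0.0011). Without the 0 h array of experiment 1 or the 4 h array of experiment 1 under low IL-3, its low IL-3 call was lost (adjusted p = 0.086 and 0.082), and both calls were lost under 75th percentile scaling and quantile normalization. Usp39, a catalytically inactive member that works in the spliceosome, kept 77.0% ± 15.1 and 79.0% ± 3.30. Its log2 change relative to the median gene was -0.17 in both doses. Not relative to the median gene, the change was -0.39 in low and -0.34 under high IL-3 (SE 0.11, adjusted p = 0.0076 and 0.020). Under 75th percentile scaling that change was 0.05 and 0.09. Under that scaling Usp39 stayed below the median gene, which was at 0.21 and 0.25. Its low IL-3 call was lost when experiment 1 lacked its 0 h array or its 4 h array of that dose (adjusted p = 0.067 and 0.14). Its high IL-3 call was lost in 9 of 20 alternatives, among them those without the 0 h array of experiment 1 (adjusted p = 0.13) or without either 4 h array under high IL-3 (adjusted p = 0.082 and 0.12). Usp36, which works in the nucleolus, was not called by its brightest probe set, at 90.1% ± 23.7 and 106% ± 12.3.

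The first and the second 2 h were then compared with their own starting points, with both doses averaged. In the first 2 h, 11 Usp genes fell, beside 30.9% of tested genes, and none rose, beside 3.34%. In the second 2 h, 13 fell, beside 30.9% of genes, and none rose, beside 5.46%. No Usp gene was higher at an unadjusted p under 0.05 in the first 2 h, and 2 were in the second. With quantile normalization 6 were higher and 8 lower in the first 2 h, beside 25.5% and 21.5% of tested genes, and 4 were higher and 7 lower in the second, beside 22.7% and 24.3%. With 75th percentile scaling 7 were higher and 7 lower in the first 2 h, beside 36.7% and 19.8%, and 5 and 8 in the second, beside 29.6% and 22.1%. Falls of 9 genes were called in both intervals, beside 21.1% of all tested genes, namely Usp1, Usp3, Usp7, Usp10, Usp17la, Usp33, Usp34, Usp38 and Usp47. Usp17la and Usp38 are in the counts of 11, 13 and 9, but reached the intensity minimum only through their 0 h arrays. Their falls are a description here too. With single arrays left out, the second fall of Usp34 was lost in 6 of 10 cases (highest adjusted p = 0.16, without the 2 h array of experiment 1 under high IL-3), that of Usp33 in 1 (adjusted p = 0.060, without the 2 h array of experiment 1 under low IL-3) and that of Usp17la in 3, and the first fall of Usp17la in 1. The falls that follow are not relative to the median gene, whose log2 change was -0.11 in the first and -0.07 in the second 2 h. Usp10 fell by 1.33 and then by 1.23 on the log2 scale (SE 0.13 and 0.11), Usp38 by 1.42 and 0.74 (SE 0.18 and 0.14). Usp7 fell by 0.59 and 0.77 (SE 0.10 and 0.08) and Usp47 by 0.69 and 0.87 (SE 0.11 and 0.09). Whether the intervals of a gene differ was not tested. Usp16 and Usp19 were called in the first interval and not in the second, and Usp4, Usp15, Usp22 and Usp39 in the second and not in the first. The fall of Usp22 started from 2 h signals above 0 h, which the study's methods treat as measurement noise. Usp22 stood at 124.1% of its 0 h signal in low and 132.5% under high IL-3 at 2 h, and at 100.1% and 95.1% at 4 h. Its log2 change in the first 2 h was 0.31 (SE 0.16, adjusted p = 0.16). The place of Usp22 in the count of 13 is therefore a description, and whether its fall is decay was not tested. Leaving out single arrays ended the second-interval call of Usp15 in 6, of Usp22 in 5 and of Usp39 in 7 of 10 cases, and the first-interval call of Usp19 in 3. Without the 2 h array of experiment 1 in low or under high IL-3, 8 falls were called in the second 2 h.

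The study asked whether IL-3 slows the decay of transcripts. No Usp gene was higher under the high dose over 2 h and 4 h (limma, adjusted p under 0.05), beside 0.869% of tested genes, and none was lower, beside 0.0147%. At an unadjusted p under 0.05, 1 Usp gene was higher and 0 lower, and the smallest adjusted p was 0.48. The dose effect, high minus low IL-3 on the log2 scale, ran from -0.13 to 0.23 over the 30 genes, with a median of 0.00 beside -0.01 over all genes. The 95% intervals of 29 genes lay within 0.5 log2 units either way, and that of Usp17la reached -0.53. In the same cells and fit, Hbegf, an EGF-family ligand, had a dose effect of 1.57 (95% interval 1.33 to 1.80, adjusted p = 1.4e-06) and the cell cycle inhibitor Cdkn1a (p21) one of 0.77 (0.56 to 0.97, adjusted p = 8.8e-04). The change of the dose effect from 2 h to 4 h passed for no Usp gene, beside 0.0% of tested genes, and none had an unadjusted p under 0.05.

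**Figure D3:**
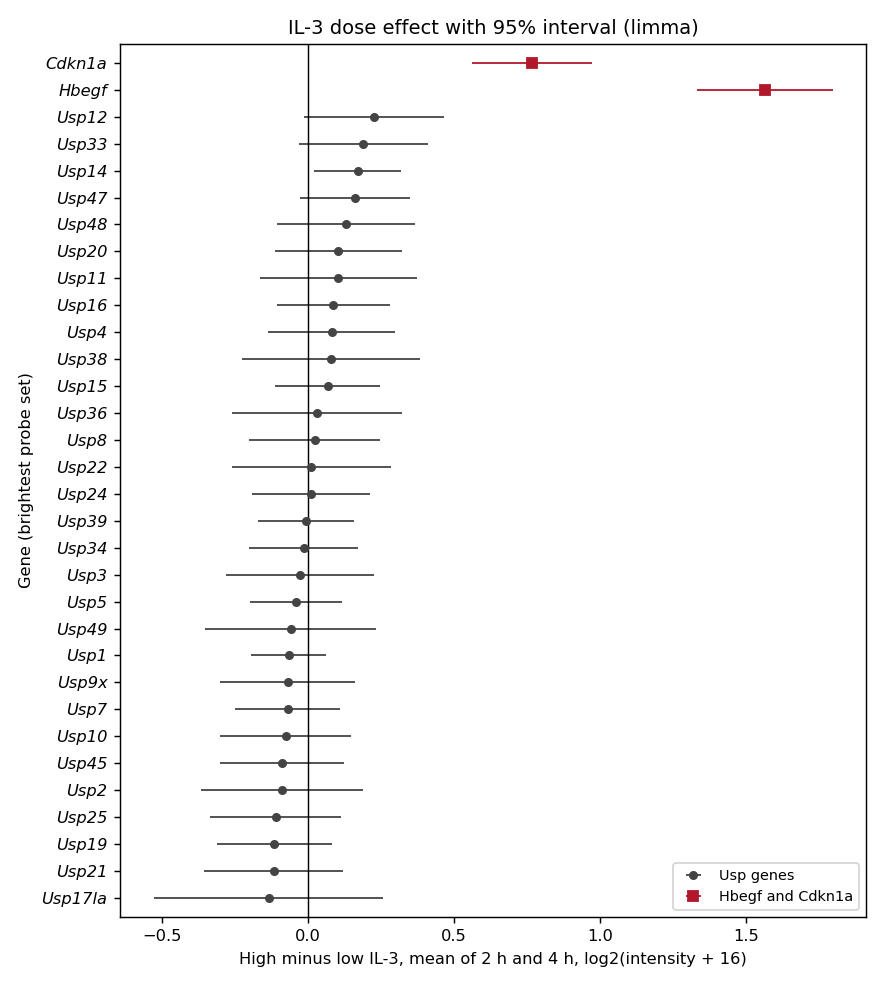
IL-3 dose effect of the 30 tested Usp genes (grey circles) and of Hbegf and Cdkn1a (red squares), as high minus low IL-3 averaged over 2 h and 4 h on the log2(intensity + 16) axis. Bars are 95% intervals from limma. The Usp effects lie between -0.13 and 0.23, and those of Hbegf and Cdkn1a are 1.57 and 0.77.

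The 6 Usp genes with the smallest p for the dose effect were Usp14, Usp12, Usp33, Usp47, Usp19 and Usp48. Usp14 read 1369 and 1207 at 2 h in low against 1565 and 1307 under high IL-3, and 1201 and 1234 against 1389 and 1391 at 4 h. High was above low in all 4 pairs of arrays matched by experiment and time. The dose effect was 0.17 (SE 0.07, 95% interval 0.02 to 0.32, adjusted p = 0.48). Its other tested probe sets had dose effects of -0.03 (SE 0.09) and -0.07 (SE 0.10).

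Usp12 read 222 and 158 at 2 h in low against 261 and 185 under high IL-3, and 174 and 157 against 245 and 159 at 4 h. All 4 pairs were higher under high IL-3, the last by little. Its dose effect was 0.23 (SE 0.11, 95% interval -0.01 to 0.47, adjusted p = 0.63). Usp33 had a dose effect of 0.19 (SE 0.10, adjusted p = 0.68), Usp47 of 0.16 (SE 0.09, adjusted p = 0.68), Usp48 of 0.13 (SE 0.11, adjusted p = 0.84) and Usp19 of -0.12 (SE 0.09, adjusted p = 0.83). The other tested probe sets had dose effects of 0.00 (SE 0.10) for Usp47, 0.07 (SE 0.12) for Usp19, 0.19 (SE 0.14) for Usp12, and 0.04 (SE 0.09) and 0.11 (SE 0.11) for Usp48. High IL-3 was above low in all 4 pairs for 4 Usp genes, Usp12, Usp14, Usp20 and Usp47, beside 11.1% of tested genes, and below low in all 4 for Usp1, Usp2 and Usp19, beside 7.44%. The study's g_score is the area between the high and low decay curves divided by the variability at like 0 h signal. It was recomputed here from the deposited values, so its ranks may differ from the published ones. With no intensity minimum, it placed 3 of the 39 Usp genes in the top 1000 probe sets, beside 4.95% of named genes. They were Usp14 (rank 351), Usp12 (rank 580) and Usp18 (rank 599). Usp18 lay below the intensity minimum, at a mean of 17.5.

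Several probe sets past the intensity minimum were available for 15 Usp genes. They gave the same call in both doses at 4 h for 9 of them, Usp1, Usp3, Usp7, Usp9x, Usp24, Usp34, Usp45, Usp47 and Usp48, and differed for Usp2, Usp12, Usp14, Usp19, Usp36 and Usp39. Another Usp14 probe set read 340 and 194 at 0 h, 504 and 354 at 4 h in low and 511 and 333 at 4 h under high IL-3, where the brightest was not called. It rose by a log2 of 0.68 in low (SE 0.14, adjusted p = 6.0e-04) and 0.65 under high IL-3 (SE 0.14, adjusted p = 0.0011), not relative to the median gene. The other Usp2 probe set read 104 and 57.1 at 0 h, 43.9 and 11.7 at 4 h in low and 57.0 and 8.53 at 4 h under high IL-3. Usp2 stabilizes cyclin D1. This probe set fell by 1.20 in low and by 1.15 under high IL-3 on the log2 scale (SE 0.22), not relative to the median gene. The brightest, from 128 and 81.4 at 0 h, was not called (adjusted p = 0.095 and 0.067). The other Usp36 probe set fell by 0.52 and 0.48 on the log2 scale (SE 0.19), also not relative to the median gene. These other probe sets of Usp2 and Usp36 reached the minimum only through 0 h, with means of 42.9 and 49.7 over the 8 later arrays. No p is given for their falls. The other probe sets of Usp12 and Usp39 were called in neither dose, and that of Usp19 was called under low IL-3 and not under high IL-3 (adjusted p = 0.089). Over all 51 Usp probe sets past the minimum, 0 had a dose effect at an adjusted p under 0.05, beside 0.692% higher and 0.0169% lower among all tested probe sets, and 1 had one at an unadjusted p under 0.05.

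The spread of the falls over the normalizations is shown for low IL-3 in the plot of 4 normalizations. Usp10, Usp38, Usp47, Usp7 and Usp3 were called lower in both doses under every alternative run for them, and Usp33 was called so under low IL-3. For Usp38 this rests on the choice of probe sets by a mean that its 0 h arrays raised. Under 75th percentile scaling the median gene moved to 0.21, and Usp5, Usp8, Usp9x, Usp11, Usp14, Usp24, Usp25, Usp45, Usp48 and Usp49 passed as higher in both doses.

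**Figure D4:**
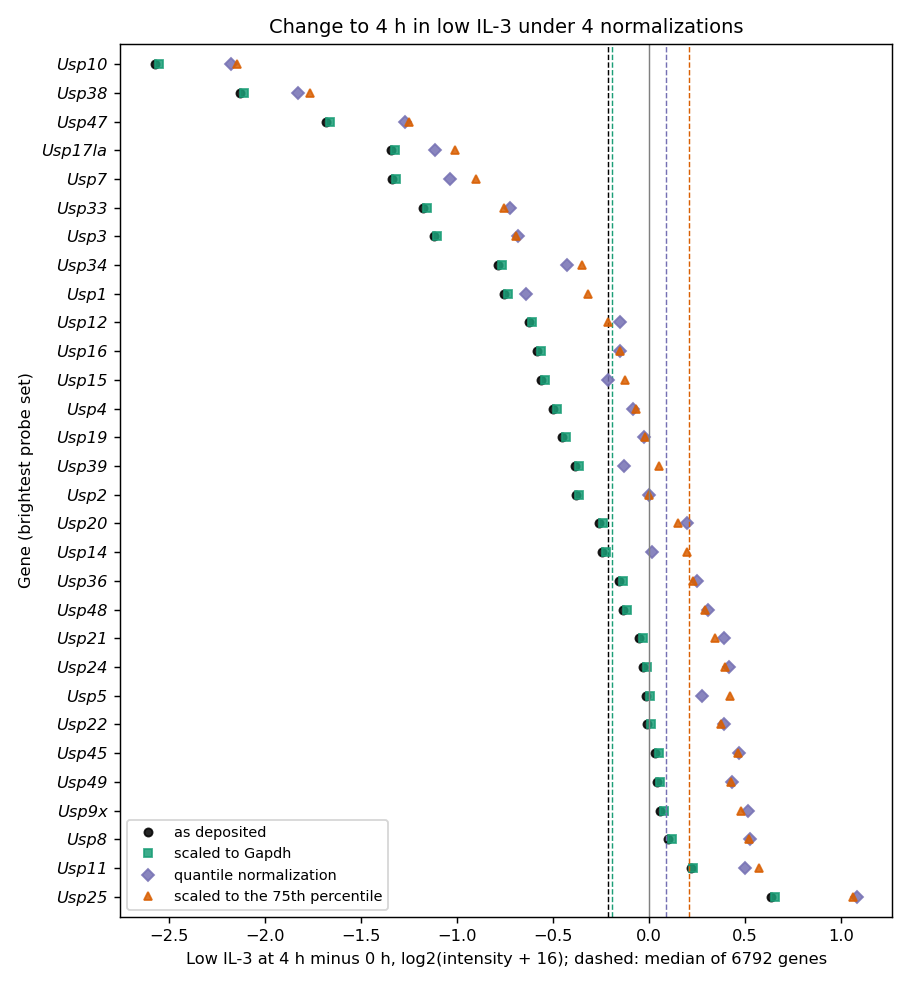
Log2(intensity + 16) change from 0 h to 4 h under low IL-3 of the 30 tested Usp genes under 4 normalizations, marked by symbol and colour. Dashed lines are the medians of all 6792 tested genes, -0.21 as deposited, -0.19 scaled to Gapdh, 0.09 with quantile normalization and 0.21 scaled to the 75th percentile. Usp10, Usp38 and Usp47 are lowest under each.

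Other genes of the ubiquitin pathway were taken from lists. Of 30 listed deubiquitinases of other families 16 were tested, and 11 fell and 2 rose under low IL-3, while 7 fell and 2 rose under high IL-3, beside 43.6% lower and 13.7% higher under low and 40.6% and 9.11% under high IL-3 over all tested genes. Their median log2 change was -0.41 in low and -0.27 under high IL-3, beside -0.38 and -0.36 for the Usp genes. Otud4, of the ovarian tumour protease family, kept 42.9% ± 6.21 and 38.7% ± 6.75, and Psmd14, a proteasome lid subunit, kept 70.6% ± 4.86 and 76.0% ± 2.54. None had a dose effect at an adjusted p under 0.05. The falls counted include Otud7b, whose mean intensity of 51.6 was close to the minimum and may have reached it only through 0 h. Of 8 tested partner proteins of Usp enzymes, 3 fell and 2 rose in each dose, beside the same shares of all genes. Wdr20 kept 16% ± 2.66 and 14.3% ± 1.88 (adjusted p = 5.8e-08 and 4.1e-08). Wdr48, the activator of Usp1 and Usp12, kept 43.5% ± 4.36 and 52.9% ± 1.19 (adjusted p = 3.8e-06 and 7.4e-05). Atxn7, Atxn7l3 and Eny2 sit with Usp22 in the SAGA deubiquitinase module. Eny2 was at 122% ± 20.03 under low IL-3 (adjusted p = 0.017) and Atxn7l3 at 93.8% ± 10.7 (adjusted p = 0.41). Atxn7, among the 2 counted as risen, was at 269% ± 138 under low IL-3. Its mean intensity of 52.0 was close to the minimum, which it may have reached only through its 4 h arrays. No p is given for Atxn7, and its place in the count is a description. G3bp1, the partner of Usp10, was not called and kept 86.5% ± 7.51. Of 4 tested genes of the ISG15 and interferon list, Irf7 fell in both doses, and none of 4 ubiquitin precursor genes had a probe set naming it alone. Of the genes taken as controls of the block, Myc kept 4.00% ± 0.574 under low IL-3 and Mcl1 13.3% ± 1.81, while Gapdh was at 99.2% ± 0.438.

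The 9 Usp genes below the intensity minimum were Usp9y, Usp13, Usp18, Usp26, Usp27x, Usp29, Usp42, Usp43 and Usp53. Usp18, the protease that removes the ubiquitin-like protein ISG15, read 27.1 and 16.6 at 0 h, 12.7 and 8.44 at 4 h in low and 29.7 and 19.0 at 4 h under high IL-3. All these readings lay under 50. With no intensity minimum its dose effect was 0.43 (SE 0.12, adjusted p = 0.38). Usp53 read 114 and 30.3 at 0 h and at most 29.9 on every later array. With no minimum, and not relative to the median gene, its log2 change to 4 h was -1.48 in low (SE 0.21, adjusted p = 1.6e-04) and -1.38 under high IL-3 (SE 0.21, adjusted p = 3.2e-04). Its fall leads to values that are near the lowest the array gives. The other 7 read between 1.00 and 27.9 on all arrays.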

How the data were processed

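RNA of 10 samples was hybridised to 1-colour arrays. The deposited intensity values, on a linear scale, were normalized together by the authors with dChip at its default settings (version not given in the sources used here). Gene names came from the platform annotation, with symbols brought up to date by gene ID from an NCBI RefSeq table (GRCm38.p6). Of 22690 probe sets, 20393 name 1 gene, 691 several and 1606 none. No Usp symbol changed in the update. Members, gene lists and the rule for naming genes were chosen with earlier results of these data known. Genes with values in the text are those with the smallest p in each decay comparison, the 6 with the smallest dose p, members with well known roles, and those whose probe sets disagree.

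Intensities + 16 were put on the log2 scale, and 11856 probe sets averaging at least 50 were kept. One limma fit (limma 3.58.1, R 4.3.3) covered the 5 groups with experiment as a block and a variance trend, with Benjamini-Hochberg adjustment over all 11856 and a threshold of 0.05. The block was used because each experiment divided 1 culture over its 5 arrays. Deviations from the group means of arrays that share an experiment had correlations between 0.762 and 0.887 over 10 pairs of groups. Summaries used Python 3.11.15, numpy 2.4.6 and pandas 2.3.3. Each half-life is ln 2 divided by the decay slope of the natural log of the share left, fitted through 0 h for each experiment and dose. The limma step was run on simulated data, with dose changes added to independent noise. That simulation held no differences between experiments or times, so it does not bear on the block or on the decay comparisons. The 20 alternatives were pseudocounts of 1 and 64, no minimum or one of 200, quantile normalization, scaling to Gapdh or to the 75th percentile, no trend, no block, the mean of all probe sets of a gene, and each array left out. Precision is limited by having 2 arrays per group. No authors' comparison columns were used.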

Additional observations from a re-analysis of the deposited data

How the results depend on the processing

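Over 1210 repeats of results on named Usp genes under the 20 alternatives, 1058 kept direction and side of the threshold. The repeats include results that were not called as deposited and had no call to lose. In 150 repeats the call was lost, and 2 reversed in direction, not taken relative to the median gene. The 2 were Usp39 at 4 h under 75th percentile scaling, at 0.0535 under low (adjusted p = 0.56) and 0.0902 under high IL-3 (adjusted p = 0.33), where the median of all genes shifts too. The counts of Usp genes with a dose effect, or with a change of it, were 0 under every alternative. Counts of Usp genes called at 4 h under low IL-3, higher and lower, were 9 and 9 with quantile normalization and 10 and 9 with 75th percentile scaling. Under high IL-3 they were 9 and 9, and 10 and 9. Over all tested genes the shares under low IL-3 were 37.1% and 31.2%, and 45.1% and 28.4%. In the first 2 h, 6 were higher with quantile normalization, and 7 were higher and 7 lower with 75th percentile scaling. In the second 2 h these were 4 and 7 with quantile normalization and 5 and 8 with 75th percentile scaling. Without the replicate block, 0 were higher and 7 lower under low IL-3, 0 and 5 under high IL-3, 2 lower in the first 2 h and 1 lower in the second. With the block removed, 40 calls were lost, among them those of Usp1, Usp34, Usp17la and Usp25. Usp33 under high IL-3 had an adjusted p of 0.064. For the losses without the block the cause was not tested. Shares of all tested genes are not given here for the fit without the block, nor for the settings named next. These counts therefore do not show whether the Usp genes differ from other genes. Under high IL-3 the count of higher genes was 0 with no intensity minimum or one of 200, and 2 with the mean of all probe sets. In the second 2 h it was 1 without the variance trend. With single arrays left out, 11 to 16 genes were lower and 1 was higher each time at 4 h under low IL-3, 11 to 15 lower and 0 to 1 higher under high IL-3, 10 to 12 lower in the first 2 h and 8 to 13 in the second. Signals near the lowest array values limit Usp38, Usp17la and the 9 untested genes.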
